A study of Rattus norvegicus with 12 samples.

Results

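The levels of 9 transcription factor genes that set muscle identity were followed in H9C2, an established rat line of heart-derived myoblasts, by sequencing of polyadenylated RNA. The genes were the myogenic bHLH factors Myod1, Myog and Myf5, the MADS-box factors Mef2a, Mef2c and Mef2d, the homeobox factor Six4, and the cardiac factors Gata4 and Nkx2-5. They were chosen by gene name, and all 9 were found among the 16002 gene IDs used. In the deposited table the ID of Myog is ENSRNOG00000030743, that of Myod1 ENSRNOG00000011306, that of Mef2c ENSRNOG00000033134, that of Gata4 ENSRNOG00000010708 and that of Nkx2-5 ENSRNOG00000020747. There were 3 groups of 4 libraries. Cells of the LITAF group carried a lentiviral vector that overexpresses LITAF, an endosomal and lysosomal membrane protein, and were kept at 1% oxygen for 8 h and then returned to normal oxygen for 2 h, a hypoxia and reoxygenation treatment called H/R. Cells of the H/R group carried an empty lentiviral vector and had the same H/R. Cells of the control group had normal oxygen and no vector, so any difference from control joins the vector with H/R. The labels call the replicates biological without naming separate cultures, so the p-values here cover only library-to-library spread, which may be technical. All libraries came from 1 line, labelled wild type, in 1 batch.

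MyoD, the product of Myod1, and Myf5 commit cells to the skeletal muscle lineage, and myogenin, the product of Myog, drives the later step in which myoblasts stop dividing and fuse. These factors bind E-boxes as dimers with E proteins and are held back by Id proteins. MEF2 factors bind A/T-rich sites in the same muscle promoters and also act in heart muscle, and Six4 binds MEF3 sites. Gata4 and Nkx2-5 bind each other and many heart gene promoters.

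The promoter of Myog brings these families together, and Myog is the one of the 9 genes whose level differed most from control. The bases before its start were read from RefSeq (build GRCr8) at chr13:48297306-48297475 on the plus strand, and the promoter of Mef2a, which holds a MEF2 core of its own, at chr1:130392163-130392332 on the minus strand. Capitals mark E-boxes (CANNTG), the MEF3 motif (TCAGGTTTC) and the MEF2 core (CTANNNNTA with A or T at each N), searched on both strands, and no motif of 1 of these kinds overlaps one of another.
Myog: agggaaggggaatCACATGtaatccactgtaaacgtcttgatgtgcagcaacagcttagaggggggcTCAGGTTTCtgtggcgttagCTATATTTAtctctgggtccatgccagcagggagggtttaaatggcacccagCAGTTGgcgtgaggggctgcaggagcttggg
Mef2a: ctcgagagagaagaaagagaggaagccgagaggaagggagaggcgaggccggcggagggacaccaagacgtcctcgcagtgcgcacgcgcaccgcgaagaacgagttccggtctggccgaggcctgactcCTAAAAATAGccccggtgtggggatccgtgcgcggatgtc
In Myog the E-boxes began 157 and 31 bases before the start, the MEF3 motif 103 bases before it and the MEF2 core 83 bases before it. In Mef2a the MEF2 core was found on both strands, overlapping itself, 40 bases before the start. Over windows of 300 bases around the start, an E-box stood in 72.1% of 33465 promoters, the MEF2 core in 3.77% and the MEF3 motif in 0.451%. The short motif GATA, found in 60.5% of them, was also searched but is not marked. In Myog it overlapped the MEF2 core, on the minus strand. The table of promoters held 6 of the 9 genes, and the windows of Myf5, Mef2d, Six4 and Nkx2-5 held neither a MEF2 core nor a MEF3 motif.

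Total counts ran from 17.2 to 18.4 M reads over the LITAF libraries, from 16.9 to 18.1 M over the H/R libraries and from 19.2 to 20.7 M over the control libraries. Litaf itself stood at 2010 to 2690 CPM (counts scaled to library size, after TMM scaling) in the LITAF libraries, against 549 to 619 CPM in the H/R libraries and 456 to 491 CPM in the control libraries. Values that were not whole numbers made up 11.9 to 12.6% of the LITAF columns, 11.4 to 12.4% of the H/R columns and 2.84 to 3.40% of the control columns, while all 108 values of the 9 genes were whole. The low-count filter passed 8 of the 9 genes, and Myf5 did not pass. In these bulk libraries, fewer cells of a kind and less RNA of a gene per cell cannot be told apart.

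The labels describe a cardiomyoblast, and of the 17 heart muscle genes in the table some were close to absent and others abundant. Tnnt2, the cardiac troponin T gene, averaged 169, 67.9 and 304 CPM in the LITAF, H/R and control groups, and Ankrd1, a stress-responsive ankyrin repeat gene of heart muscle, 1620, 1470 and 3020 CPM. Tnni3, the cardiac troponin I gene, had no read in the H/R and control groups and averaged 0.0137 CPM in the LITAF group. The cardiac myosin gene Myh6 averaged 0.720, 0.245 and 0.250 CPM in the LITAF, H/R and control groups, and Myl2, Myh7, Nppa, Nppb and Ryr2 stayed at or under 0.139 CPM in each group mean. Of the heart regulators, Gata5, Tbx20, Hand1 and Hopx had no read in any library, while Gata6, Hand2 and Myocd were well detected. Markers of other cell types were looked at as well. Summed over the 5 endothelial markers, the libraries held 0.218 to 0.568 CPM in the LITAF group, 0.0570 to 0.800 CPM in the H/R group and 0.222 to 1.39 CPM in the control group. The 3 macrophage markers summed to 1.46 CPM or less in every library. The 8 fibroblast markers, led by Col1a1, summed to 16200 to 20900 CPM in the LITAF group, 13600 to 15400 CPM in the H/R group and 36500 to 47300 CPM in the control group, with Dcn at 0 in every library. The 6 smooth muscle markers, led by Acta2, summed to 5470 to 8400, 6710 to 7030 and 4210 to 5180 CPM in the same order of groups. By edgeR's test, 2 of the 5 fibroblast markers tested rose in the LITAF group against the H/R group (0 to 3 passed over the alternatives), 4 fell in the H/R group against control and 3 fell in the LITAF group against control. Of the 6 smooth muscle markers none passed in the LITAF group against the H/R group by edgeR or DESeq2, with 0 at an unadjusted p under 0.05, while against control 3 rose and 1 fell in the H/R group and 5 rose and 1 fell in the LITAF group. No endothelial marker and 1 macrophage marker, Csf1r, passed the low-count filter. By edgeR's test Csf1r passed in no comparison, with an unadjusted p under 0.05 in the LITAF group against control (adjusted p 0.0725). Over the alternatives, 0 to 1 macrophage markers passed in each comparison with control. Over all genes tested, 3.73% rose in the LITAF group against the H/R group. Against control, 31.8% rose and 31.8% fell in the H/R group, and 32% rose and 32.6% fell in the LITAF group. The part of these markers in the results was not tested.

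Against control, the H/R group had far less Myog, less Myod1, Mef2c, Gata4 and Six4, and more Nkx2-5 and Mef2d. Myog was 275-fold lower, Myod1 2.93-fold, Mef2c 2.14-fold, Gata4 1.91-fold and Six4 1.62-fold. Nkx2-5 was 2.41-fold higher and Mef2d 1.24-fold higher. By edgeR's quasi-likelihood test with an adjusted p under 0.05, 7 of the 8 genes tested changed, 2 higher and 5 lower, and Mef2a did not pass. Among all 11398 genes tested, 63.6% passed in this comparison, 31.8% lower and 31.8% higher, and the groups did not overlap for 58.6% of genes (30.2% higher, 28.3% lower), against 7 of the 8 factors. Most genes thus differed from control, and the count of 7 is to be read against that share. The median log2 fold change of the 8 genes was -0.81, against 0.01 over all genes tested.

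The same 7 genes passed in the LITAF group against control, in the same directions, where 64.6% of all genes passed (32% higher, 32.6% lower). The groups did not overlap for 6 of the 8 genes, against 52.1% of all genes (26.4% higher, 25.7% lower). The H/R and LITAF comparisons share the control libraries, so the agreement is not independent. In the LITAF group against the H/R group, none of the 8 genes passed edgeR's test or DESeq2, and 1 of them, Myog, had an unadjusted p under 0.05. In that comparison 4.88% of all genes passed by edgeR. The groups overlapped for each of the 8 genes, while they did not overlap for 18.9% of all genes (10.6% higher, 8.3% lower).

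**Figure D1:**
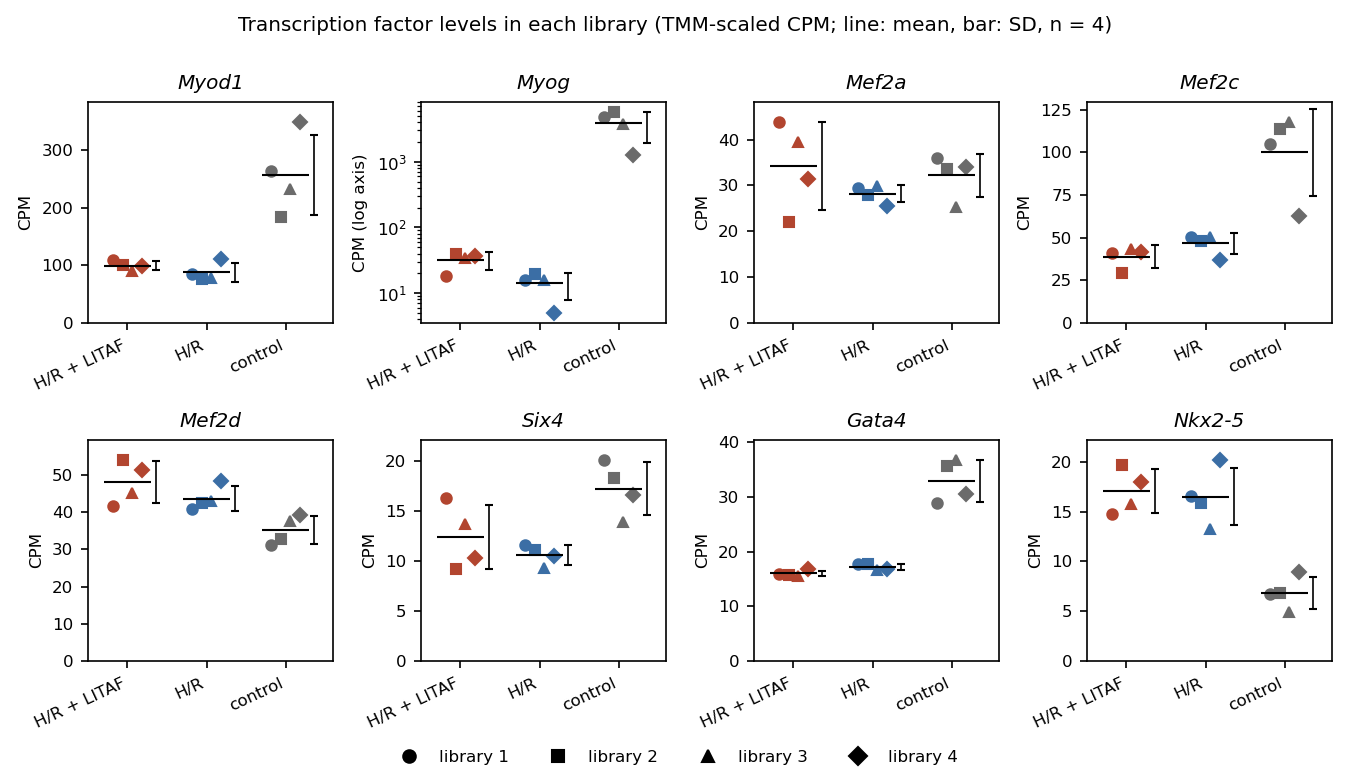
Level of the 8 tested genes in each library in CPM (vertical axis, from 0 except for Myog, which has a log axis) in the LITAF, H/R and control groups. Each symbol is 1 library by its replicate number, lines are means and bars are SD (n = 4). Control libraries of Myog lie at 1260 to 5730 CPM, far above all libraries of the other groups, and those of Nkx2-5 at 4.89 to 8.90 CPM lie below all of them.

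Myog differed most from control among the 8 genes tested. It was measured at 18, 39.5, 33.7 and 36.7 CPM in LITAF libraries 1 to 4, at 15.9, 19.6, 15.8 and 4.99 CPM in H/R libraries 1 to 4, and at 4760, 5730, 3730 and 1260 CPM in control libraries 1 to 4. The control libraries were all higher than every other library by a wide margin, and within the control group library 4 was lowest, 4.56-fold under library 2. Its share of all counts was 0.00184 to 0.00395% in the LITAF group, 0.000524 to 0.00203% in the H/R group and 0.121 to 0.537% in the control group. By count it ranked 10, 9, 12 and 58 among the gene IDs used in control libraries 1 to 4. The fall in the H/R group against control was log2 -8.10 ± 0.58 (SE), adjusted p by edgeR 5.39e-08, which ranked 2 among 11398 genes by the size of the fall, and the fall in the LITAF group against control was log2 -6.92 ± 0.55, adjusted p by edgeR 1.34e-07, which also ranked 2.

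Between the 2 groups with H/R, the mean Myog level was 32.0 ± 9.61 CPM over LITAF libraries and 14.1 ± 6.30 CPM over H/R libraries (SD, n = 4). The difference was log2 1.19 ± 0.46, unadjusted p = 0.0224 and adjusted p by edgeR 0.168, so it did not pass. LITAF library 1, at 18 CPM, lay within the range of the H/R libraries, and the other 3 lay above it. Over the 16 alternative fits the log2 value stayed between 0.92 and 1.40 and the adjusted p between 0.0671 and 0.385.

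Myod1 was measured at 110, 101, 89.7 and 98.5 CPM in LITAF libraries 1 to 4, at 84.8, 75.7, 79.1 and 112 CPM in H/R libraries 1 to 4, and at 264, 185, 233 and 350 CPM in control libraries 1 to 4. The control libraries did not overlap with either group that had H/R, and those 2 groups overlapped. It changed by log2 -1.55 ± 0.17 in the H/R group against control (adjusted p by edgeR 7.58e-07) and by log2 -1.37 ± 0.17 in the LITAF group against control (adjusted p by edgeR 2.67e-06). For the LITAF group against the H/R group the value was log2 0.18 ± 0.17, adjusted p by edgeR 0.590. The Myog level divided by the Myod1 level in the same library ran from 0.164 to 0.391 in the LITAF group, from 0.0444 to 0.258 in the H/R group and from 3.59 to 30.9 in the control group. These CPM ratios are not corrected for transcript length, and they serve only to compare libraries.

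Myf5, the other factor of lineage commitment, was near 0. It had 2 reads in all in the LITAF group, 1 read in the H/R group and none in the control group, where a count of 0 allows up to 0.0397 CPM over the 4 libraries together, for counting error alone. The exact two-sided permutation test of the LITAF group against the H/R group gave p = 0.429, that of the H/R group against control p = 1, and that of the LITAF group against control p = 0.429, 3 tests for which the smallest possible p is 0.0286. No difference was detectable at this depth.

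Six4, a homeobox factor that binds MEF3 sites, was measured at 16.3, 9.23, 13.7 and 10.3 CPM in LITAF libraries 1 to 4, at 11.6, 11.1, 9.28 and 10.5 CPM in H/R libraries 1 to 4, and at 20.1, 18.3, 13.9 and 16.6 CPM in control libraries 1 to 4. All H/R libraries were below all control libraries, while the LITAF libraries were spread and overlapped with both groups. It fell in the H/R group against control by log2 -0.70 ± 0.17, adjusted p by edgeR 0.00186. The fall in the LITAF group against control, log2 -0.48 ± 0.17 with adjusted p by edgeR 0.0202, was lost without control library 1 (adjusted p = 0.0682), LITAF library 2 (0.0607) or LITAF library 4 (0.0704), and with library totals as the only scaling (0.0519), within a range of 0.00237 to 0.0704 over its 16 alternatives.

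The 3 MEF2 genes did not move alike. Mef2c, the form most tied to early heart and skeletal muscle development, was measured at 41.2, 29.1, 43.6 and 41.9 CPM in LITAF libraries 1 to 4, at 50.5, 48.2, 50.7 and 37.2 CPM in H/R libraries 1 to 4, and at 105, 114, 118 and 62.9 CPM in control libraries 1 to 4. Control library 4 was the lowest control library and still above every other library. It changed by log2 -1.10 ± 0.18 in the H/R group against control (adjusted p by edgeR 5.82e-05) and by log2 -1.36 ± 0.18 in the LITAF group against control (adjusted p by edgeR 6.76e-06).

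Mef2d, a widely expressed form, was measured at 41.8, 54.1, 45.1 and 51.3 CPM in LITAF libraries 1 to 4, at 40.8, 42.4, 43.0 and 48.5 CPM in H/R libraries 1 to 4, and at 31.3, 32.8, 37.7 and 39.2 CPM in control libraries 1 to 4. All control libraries were below the rest, by a small margin. It rose by log2 0.45 ± 0.11 in the LITAF group against control, adjusted p by edgeR 0.00253. The rise in the H/R group against control was log2 0.31 ± 0.11 with adjusted p by edgeR 0.0251, and it did not pass without control library 1 (0.0694), control library 2 (0.0548) or H/R library 4 (0.0962), nor without both libraries numbered 4 (0.0558), within a range of 0.00339 to 0.0962 over 17 alternatives. Mef2c divided by Mef2d in the same library, a ratio not corrected for length, was 0.537 to 0.986 in the LITAF group, 0.769 to 1.24 in the H/R group and 1.61 to 3.47 in the control group.

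Mef2a, whose promoter is printed above, averaged 34.2 ± 9.58 CPM in the LITAF group, 28.2 ± 1.87 CPM in the H/R group and 32.2 ± 4.76 CPM in the control group (SD, n = 4 each). It passed in no comparison, at log2 0.28 ± 0.17, -0.19 ± 0.17 and 0.09 ± 0.17 for the LITAF group against H/R, the H/R group against control and the LITAF group against control. The LITAF libraries were the most spread, with library 1 at 43.9 CPM and library 2 at 22.1 CPM. For the LITAF group against the H/R group, Mef2c stood at log2 -0.26 ± 0.18 and Mef2d at 0.14 ± 0.11, and neither passed (adjusted p by edgeR 0.455 and 0.530). The 3 genes are paralogs with a common DNA-binding domain, and how reads from shared sequence were counted is not given in the sources used here.

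The cardiac factors went opposite ways against control. Gata4, a zinc finger factor of the heart, was measured at 15.9, 15.8, 15.6 and 16.8 CPM in LITAF libraries 1 to 4, at 17.8, 17.7, 16.7 and 16.9 CPM in H/R libraries 1 to 4, and at 28.9, 35.6, 36.8 and 30.5 CPM in control libraries 1 to 4. Of the 8 genes it had the least spread within the groups that had H/R, with a coefficient of variation of 3.23% in the LITAF group and 3.21% in the H/R group against 11.6% in the control group. It changed by log2 -0.93 ± 0.105 in the H/R group (adjusted p by edgeR 1.01e-06) and by log2 -1.04 ± 0.105 in the LITAF group (adjusted p by edgeR 2.61e-07), each against control.

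Nkx2-5, a homeobox factor of early heart development, was measured at 14.8, 19.7, 15.8 and 18 CPM in LITAF libraries 1 to 4, at 16.6, 15.9, 13.3 and 20.2 CPM in H/R libraries 1 to 4, and at 6.73, 6.84, 4.89 and 8.90 CPM in control libraries 1 to 4. Every control library was lower than every other library. It rose by log2 1.27 ± 0.17 in the H/R group (adjusted p by edgeR 8.27e-06) and by log2 1.32 ± 0.17 in the LITAF group (adjusted p by edgeR 5.17e-06), each against control. For the LITAF group against the H/R group, Gata4 stood at log2 -0.11 ± 0.11 and Nkx2-5 at 0.05 ± 0.165, and neither passed (adjusted p by edgeR 0.604 and 0.898). Nkx2-5 divided by Gata4 in the same library was 0.935 to 1.25 in the LITAF group, 0.799 to 1.19 in the H/R group and 0.133 to 0.292 in the control group.

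**Figure D2:**
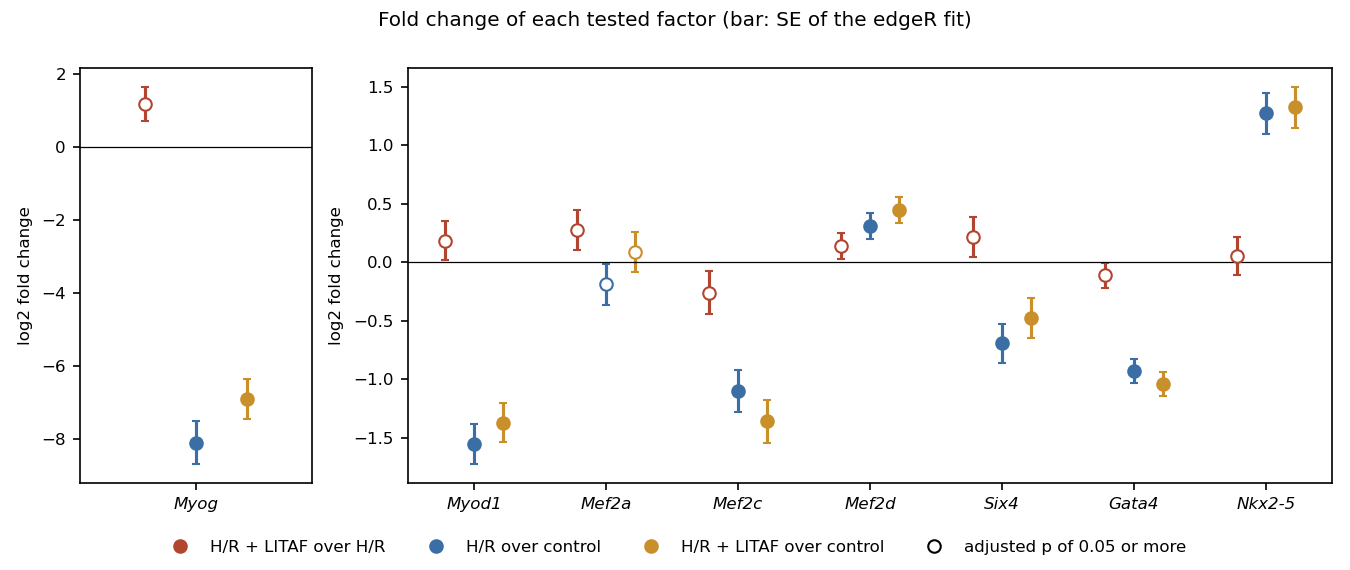
Log2 fold change of each tested gene (vertical axis) in 3 comparisons, with the SE of the edgeR fit as bars. Myog has its own panel because of its scale, open circles have an adjusted p of 0.05 or more, and all circles for the LITAF group over the H/R group are open.

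Control and H/R libraries that carry the same number in the labels moved together in several of these genes, while in Mef2a and Gata4 they did not. Both libraries numbered 4 were the lowest of their group in Myog and in Mef2c and the highest in Myod1, Mef2d and Nkx2-5. Myog in library 4 lay 1.31 log2 units under the mean of the H/R group and 1.42 under the mean of the control group, as deviations of log2 CPM. Taken by number, Myog was 299-, 293-, 236- and 252-fold lower in H/R libraries 1 to 4 than in the control libraries of the same number, although the control levels themselves spanned 4.56-fold. Myod1 was likewise 3.12-, 2.45-, 2.94- and 3.11-fold lower. For the LITAF libraries the Myog value was 264-, 145-, 111- and 34.2-fold lower than in the control libraries of the same number. Across all genes tested, the deviations of same-numbered H/R and control libraries correlated at 0.302 to 0.568, and those of differently numbered ones at -0.269 to -0.0293. Because group means were subtracted, positive r at the same number lowers the other r on average, so their negative sign is no separate result. The deviations of LITAF and H/R libraries correlated at 0.0543 to 0.197 at the same number and at -0.272 to 0.226 at different numbers. Of the gene IDs with any read, 14.9 to 16.3% had the same count in same-numbered H/R and control libraries. For differently numbered ones it was 12.2 to 13.6%. The labels name no shared culture or day behind a number, and what lies behind this likeness was not tested. A fit with the number as a block called the same count of these genes, 7 of 8, in the H/R group against control.

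**Figure D3:**
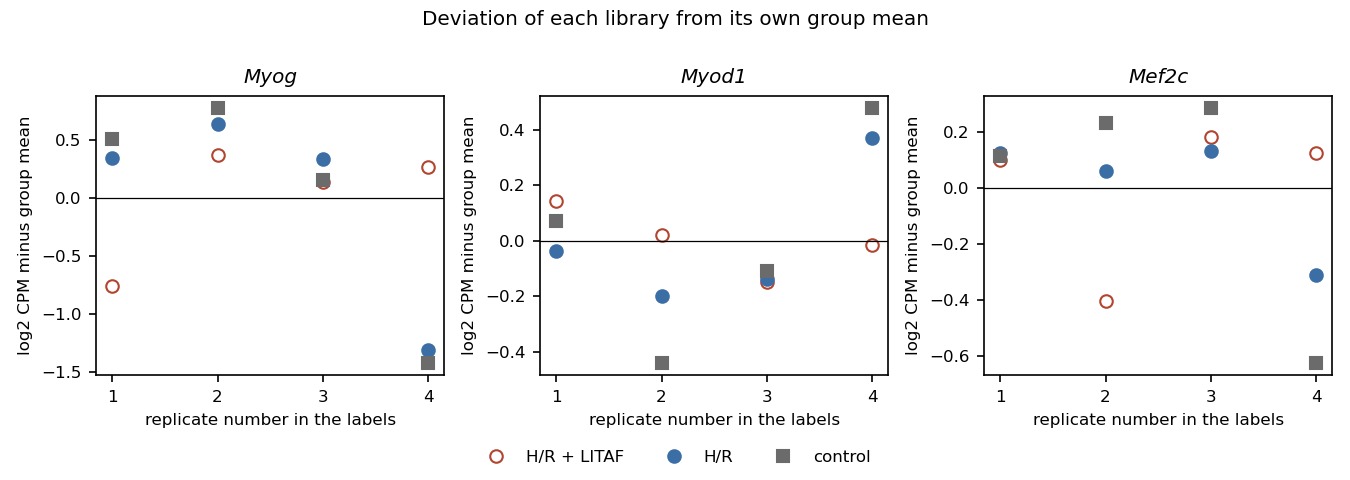
Log2 CPM of each library minus the mean of its own group (vertical axis) against the replicate number in the labels, for Myog, Myod1 and Mef2c. Control squares and filled H/R circles lie close together at each number for Myog, at -1.31 (H/R) and -1.42 (control) for number 4, while the open circle of LITAF library 1 lies at -0.763.

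The wider family of myogenic regulators was counted from a list of 14 genes, of which 11 were in the table and 8 were tested. None passed edgeR's test in the LITAF group against the H/R group, where DESeq2 also called 0 and 0 had an unadjusted p under 0.05. In the H/R group against control 1 rose and 4 fell, where 31.8% of all genes rose and 31.8% fell. In the LITAF group against control 2 rose and 4 fell, where 32% of all genes rose and 32.6% fell. The genes that fell in both were Smyd1, a muscle methyltransferase (log2 -3.88 ± 0.24 in the H/R group), Eya4, a transcriptional coactivator (log2 -2.36 ± 0.19), Rbm24, a splicing factor of muscle (log2 -1.19 ± 0.11), and Eya1, a coactivator of the same family as Eya4 (log2 -0.50 ± 0.16). Mef2b, the remaining MEF2 gene, rose by log2 2.85 ± 0.35 in the H/R group against control at a low level, 1.5 ± 0.394 CPM in the LITAF group, 1.57 ± 0.463 CPM in the H/R group and 0.213 ± 0.0477 CPM in the control group. Myf6, the last of the myogenic bHLH genes, was below 0.1 CPM in each group mean.

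Of 22 other cardiac transcription factors and cofactors, 18 were in the table and 10 were tested. For the LITAF group against the H/R group 1 rose, Srf, the serum response factor, a MADS-box protein of muscle and growth-response genes. It was measured at 120, 175, 145 and 168 CPM in LITAF libraries 1 to 4, at 91.9, 87.3, 82.4 and 86.7 CPM in H/R libraries 1 to 4, and at 76.2, 49.6, 54.8 and 45.8 CPM in control libraries 1 to 4. Its 3 groups did not overlap, and the rise over the H/R group was log2 0.81 ± 0.15, adjusted p by edgeR 0.00482. In the H/R group against control 2 of the 10 rose, Srf (log2 0.62 ± 0.15) and the Gata cofactor gene Zfpm1 (log2 0.97 ± 0.13), and 6 fell. Among those that fell were Myocd, the coactivator myocardin (log2 -2.37 ± 0.11), Zfpm2, the other Gata cofactor gene (log2 -1.01 ± 0.15), Hand2 (log2 -0.86 ± 0.13) and Gata6 (log2 -0.80 ± 0.12). Against control, 2 rose and 5 fell in the LITAF group. Over all genes tested, 3.73% rose in the LITAF group against the H/R group. Against control, 31.8% rose and 31.8% fell in the H/R group, and 32% rose and 32.6% fell in the LITAF group.

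Partners and inhibitors of the bHLH factors were counted next. Of the 3 E protein genes, Tcf3 (log2 -0.31 ± 0.11) and Tcf12 (log2 -0.53 ± 0.16) fell in the H/R group against control, and Tcf4 did not pass. Over the alternatives 1 to 3 of the 3 genes passed. In the fits without a replicate block, the Tcf3 call was lost with upper-quartile scaling (adjusted p by edgeR 0.159), with library totals alone (0.137), and without H/R library 2 (0.0598) or H/R library 3 (0.0746), and the Tcf3 call in the LITAF group against control with upper-quartile scaling (0.0943), with the 2 groups alone (0.0536) and without LITAF library 1 (0.0655). Of 18 inhibitors 11 were tested, and 7 fell and 1 rose in the H/R group against control, where 31.8% of all genes fell. Snai2 changed by log2 -2.26 ± 0.19, Id4 by log2 -1.58 ± 0.16 and Id2 by log2 -1.22 ± 0.16, while Twist1 rose by log2 0.66 ± 0.12. Against control, 4 of the 11 fell and 2 rose in the LITAF group, where 32.6% of all genes fell, and the other 5 did not pass. Of the 11, in the LITAF group against the H/R group, 1 rose, Bhlhe40 (log2 0.65 ± 0.12), none fell, 1 to 3 passed over the alternatives, and Id1, at 36.2 ± 2.80 CPM and 24 ± 5.02 CPM, stood at adjusted p by edgeR 0.0548. Of 14 kinases, deacetylases and cofactors that act on MEF2, all tested, none passed edgeR's test in the LITAF group against the H/R group, where DESeq2 called 1, 2 had an unadjusted p under 0.05, and 0 to 2 passed over the alternatives. In the H/R group against control 3 rose, with Mapk7 at log2 1.21 ± 0.13, Prkd1 at 0.62 ± 0.16 and Hdac4 at 0.44 ± 0.15, and 7 fell, with Map2k6 at log2 -2.26 ± 0.34 and Hdac9 at -1.53 ± 0.27. Over all genes tested, 31.8% rose and 31.8% fell in that comparison, and 3.73% rose in the LITAF group against the H/R group.

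Genes known as targets of the myogenic factors were followed in a list of 28, of which 23 were tested. In the LITAF group against the H/R group 11 rose and none fell, against 3.73% and 1.15% of all genes, and the median log2 fold change of the list was 0.96 against -0.01 over all genes. The list was chosen with earlier results of these data known, in which some of these genes already rose, so its count is no independent evidence. Among the 11, Chrna1, Chrnd, Mymx and Tnni1 would not have passed the low-count filter without their high LITAF libraries. They averaged 0.738, 1.29, 1.27 and 2.32 CPM in the LITAF group, and 0.165, 0.208, 0.205 and 0.300 CPM in the H/R group. The filter thus favoured rises among such low genes, and these rises add no support. Over the alternative fits, 9 to 13 of the 23 passed. In the main fit 12 did not pass, abundant ones among them. Cdh15 averaged 377 CPM with LITAF against 437 with H/R alone (adjusted p by edgeR 0.274). Tnnc1 averaged 299 against 274 CPM (0.733) and Cdkn1a 218 against 211 CPM (0.886). Summed over 26 genes of the list, LITAF libraries ran from 1090 to 1420 CPM, a range that spans the 1190 to 1220 CPM of H/R libraries. Myh3, the embryonic myosin gene, was measured at 11.9, 25.2, 22.4 and 28.4 CPM in LITAF libraries 1 to 4, at 4.79, 6.79, 4.91 and 3.31 CPM in H/R libraries 1 to 4, and at 20.6, 32.1, 17 and 14 CPM in control libraries 1 to 4. The LITAF libraries overlapped with control and lay above all H/R libraries. LITAF library 1 was the lowest of its group, as it was for Myog, and also for Srf and Tnnt2. That library weighed on results over all genes, since without it 1285 genes passed in this comparison against 556 with it. The LITAF group rose by log2 2.15 ± 0.29 over the H/R group (adjusted p by edgeR 0.000342).

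Mybph, a myosin-binding protein gene, was the one of these 23 genes with a fall of the size of Myog. It was measured at 7.05, 12.0, 11.8 and 13.4 CPM in LITAF libraries 1 to 4, at 3.14, 2.97, 3.36 and 1.40 CPM in H/R libraries 1 to 4, and at 1100, 1160, 1240 and 613 CPM in control libraries 1 to 4. Library 4 was the lowest in both the H/R and the control group, and library 1 in the LITAF group. Mybph rose by log2 2.02 ± 0.28 in the LITAF group over the H/R group, and it changed by log2 -8.56 ± 0.32 in the H/R group against control (adjusted p by edgeR 0.000397 and 3.77e-12). In the H/R group against control 11 of the 23 target genes fell and 1, Des, which codes for the muscle filament desmin, rose by log2 1.81 ± 0.14. Over all genes tested, 31.8% fell and 31.8% rose in that comparison. Tnnc2 (log2 -2.78 ± 0.17), Tnnt3 (-2.18 ± 0.17) and Myl4 (-1.82 ± 0.18) were among those that fell.

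Not all target genes stood in the order of Myog across the groups. Against control, 8 of the 23 rose and 8 fell in the LITAF group, where 32% of all genes rose and 32.6% fell. These counts are to be read against those shares. Tnni1, a slow troponin gene, averaged 2.32 ± 0.642 CPM in the LITAF group, 0.300 ± 0.130 CPM in the H/R group and 0.672 ± 0.534 CPM in the control group, and it was higher in the LITAF group than in control by log2 1.79 ± 0.39 (adjusted p by edgeR 0.000838). Actc1, a striated muscle actin gene, averaged 4.78 ± 2.30, 0.687 ± 0.196 and 1.30 ± 0.538 CPM in the same order, with log2 1.87 ± 0.35 against control. The acetylcholine receptor genes Chrna1 and Chrnd also rose in the LITAF group against control (log2 1.69 ± 0.39 and 1.27 ± 0.35), at 0.738 and 1.29 CPM. Myog itself was 121-fold lower in the LITAF group than in control.

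**Figure D4:**
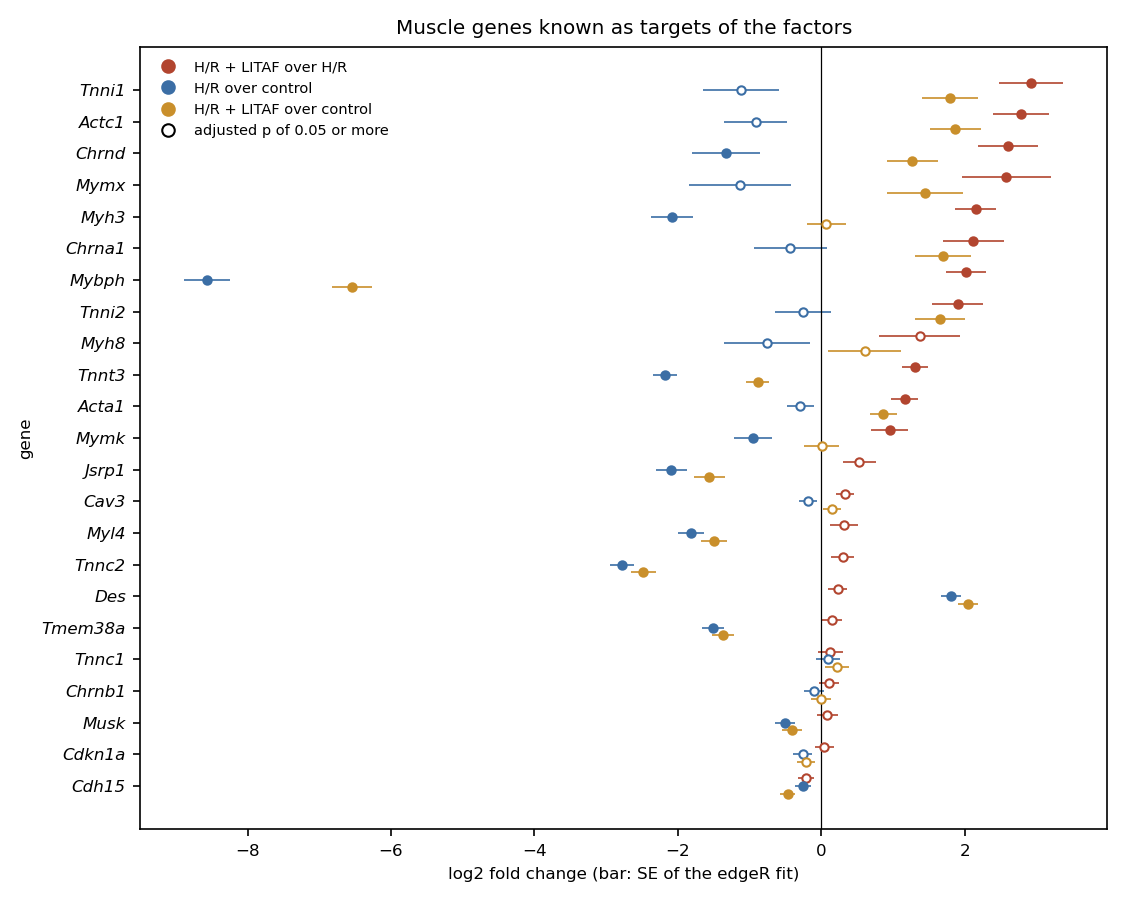
Log2 fold change (horizontal axis, bars are the SE of the edgeR fit) of the 23 tested muscle genes known as targets of the factors, in 3 comparisons; open circles have an adjusted p of 0.05 or more. The 11 filled circles for the LITAF group over the H/R group lie right of 0, and Mybph stands alone on the left against control.

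Of 19 heart muscle genes known as targets of Gata4, Nkx2-5 or MEF2, 17 were in the table and 8 were tested. In the H/R group against control 6 fell and 1 rose, where 31.8% of all genes fell and 31.8% rose. In the LITAF group against control 6 fell and 1 rose, where 32.6% of all genes fell and 32% rose. Pln, which codes for phospholamban, a brake on the calcium pump, averaged 5.90 ± 0.554 CPM in the LITAF group, 4.30 ± 0.903 CPM in the H/R group and 1120 ± 132 CPM in the control group. Gja5, a gap junction gene, averaged 128 ± 23.5, 96.4 ± 7.67 and 717 ± 22.1 CPM in the same order. The calcium pump gene Atp2a2 rose in the H/R group against control by log2 0.28 ± 0.10. Tnnt2, the cardiac troponin T gene, was the 1 gene of the list that rose in the LITAF group over the H/R group by edgeR, at 132, 178, 182 and 185 CPM in LITAF libraries 1 to 4, at 73.6, 76.3, 78.9 and 42.9 CPM in H/R libraries 1 to 4, and at 336, 306, 404 and 168 CPM in control libraries 1 to 4. The LITAF libraries overlapped with control library 4 and lay above all H/R libraries (log2 1.32 ± 0.23, adjusted p by edgeR 0.00296). Over the alternatives 1 to 3 of the list passed in that comparison, with 2 by DESeq2 and 3 without LITAF library 1. There, 3.73% of all genes rose by edgeR, and the 1 of 8 is to be read against that share.

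For each factor the genes with the closest pattern were looked up among 9707 tested genes, by Pearson's r of log2 CPM over the 12 libraries and again by r of the deviations from group means. The libraries fall into groups and same-numbered ones move together, so these r describe likeness only. Myog was closest to Lrig1 (0.993) and Mybph (0.992) over all libraries, and by deviations to Camk2a (0.992), a calcium-dependent kinase gene. Camk2a was measured at 10.3, 18.5, 15.2 and 16.5 CPM in LITAF libraries 1 to 4, at 9.80, 11.1, 9.33 and 4.66 CPM in H/R libraries 1 to 4, and at 88.1, 86.3, 73.9 and 34.9 CPM in control libraries 1 to 4. It had the low LITAF library 1 and the low libraries 4 of the H/R and control groups that Myog had. Since Camk2a was chosen by this likeness, that is no separate result. Myod1 was closest to Chst2 by both measures (0.996 and 0.963). Gata4 was closest to Trip13 (0.997), Dnajc9 (0.996) and Orc6 (0.991), of which Orc6 codes for a part of the replication origin complex, and Orc6 was again among its 3 closest by deviations (0.931). Mef2c was closest to Lrrfip1 (0.986), Mef2d to Rabggta (0.982), Nkx2-5 to Cdk5rap3 (0.988), Six4 to Wdr7 (0.946) and Mef2a to Inhba (0.910). By deviations, Mef2a was closest to Eya1 (0.981) and Six4 to Wfikkn1 (0.984).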

How the data were processed

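Per the file headers, the authors deposited unnormalized estimated counts per gene (some values not whole) with Ensembl rat gene IDs, and these values were rounded here. No source used here gives the aligner, counter, strand setting or build. The submitters' processing notes name DESeq2 and edgeR, without their role. Per the labels' protocols, libraries were made from polyadenylated RNA. Of 16204 rows, those of 56 repeated IDs were identical and kept once, and 72 IDs with differing rows were left out. Genes were filtered with filterByExpr (11398 kept), scaled by TMM and tested with edgeR 4.0.16 (quasi-likelihood, robust; limma 3.58.1, R 4.3.3) over all 12 libraries, two-sided, with Benjamini-Hochberg adjustment over all genes and a threshold of 0.05. The SE is the size of the log2 fold change over the square root of F. The fit was tested on simulated data. Of 141 list entries other than the 9 factors, 126 were in the table.

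The members, lists and naming rule were chosen with earlier results of these data known. The rule named all 9 factors, up to 4 genes with the smallest adjusted p per list and comparison, up to 4 that did not pass with the highest mean count, and the 3 closest genes to each factor. Some genes that the rule or the lists hold are not reported here. Other list genes given with values, and the genes given per library, were chosen after their values were seen. Among these list genes were Id1, Prkd1, Hdac4, Chrna1, Chrnb1, Chrnd, Chrng, Mymx, Ckm and Atp2a2. Same-numbered H/R and control libraries deviate together (r of 0.302 to 0.568, all above the limit of 0.1), which pairs them by the data and not by the labels; same-numbered LITAF and H/R libraries (lowest r 0.0543) and LITAF and control libraries (lowest r 0.0487) were not taken as paired. Alternatives were DESeq2 1.42.0, other scalings, no low-count filter, the 2 groups alone, the replicate block, a threshold of 0.01 and each library left out; leaving out both libraries numbered 4 was chosen after seeing the data.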

Additional observations from a re-analysis of the deposited data

Results flagged for a closer look

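Mef2c in LITAF library 2 stood apart from its group, at 29.1 CPM with the next library at 41.2 CPM. The gap made up 0.834 of the range of the group, above Dixon's critical value for 4 libraries. It was the 1 flag among 24 sets of a gene and a group that were checked, and chance flags about 1 in 20. Mef2a and Six4 were also lowest in that library, at 22.1 and 9.23 CPM, without passing the same limit.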

How the results depend on the processing

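The number of factors called was 0 of 8 in the LITAF group against the H/R group and 6 or 7 in both comparisons with control under every alternative run. At a threshold of 0.05, Mef2d (H/R against control) and Six4 (LITAF against control) were the calls lost, in the fits named above. No called factor changed its sign. Uncalled values near 0 did: Nkx2-5 in the LITAF group against the H/R group was -0.0397 without H/R library 3 and -0.0320 without LITAF library 2 (range -0.0397 to 0.177 with 1 library left out), and Mef2a in the LITAF group against control was -0.00854 without control library 3 and -0.0370 without LITAF library 1 (range -0.0370 to 0.238). The count of all genes called in the LITAF group against the H/R group, 556, became 902 with DESeq2, 1098 with the 2 groups alone, 182 at a threshold of 0.01, and 244 to 1285 with 1 library left out; the cause was not tested. With the replicate block it was 873 over all 12 libraries and 887 with the 2 groups alone, and the block changed no call of the 8 factors in any comparison; with the 2 groups alone, it left Tcf3 in the LITAF group against control at adjusted p by edgeR 0.0536, as did the same fit without it. Rises made up 76.4% of these calls with TMM, 66.5% with upper-quartile scaling and 61.0% with library totals alone. Those scalings moved the median log2 fold change of all genes in the H/R group against control to 0.12 and 0.13, and every called factor kept its direction. Depth limits Myf5, with 3 reads in all.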

Other observations

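Some muscle genes were too low for the filter. Chrng, an acetylcholine receptor gene of the fetal muscle, averaged 0.533 ± 0.309 CPM in the LITAF group, 0.0418 ± 0.0543 CPM in the H/R group and 0.0792 ± 0.0993 CPM in the control group (SD, n = 4 each). Ckm, the muscle creatine kinase gene, averaged 0.532 ± 0.319, 0.125 ± 0.0960 and 0.308 ± 0.243 CPM in the same order, and Myh6 0.720 ± 0.272, 0.245 ± 0.0882 and 0.250 ± 0.110 CPM. Not all genes of the lists below the filter were highest in the LITAF group. Tnnt1 averaged 0.403 ± 0.0903, 0.275 ± 0.166 and 0.425 ± 0.170 CPM in the same order, and Ryr2 0.0410, 0.0666 and 0.0894 CPM. The genes named here were chosen after their values were seen, and these differences were not tested.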
